A study of Mus musculus with 4 samples.

Results

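Neuronal transcription factor genes of the basic helix-loop-helix (bHLH) family, their partners and an inhibitor, 10 genes in all, were followed in nuclei of excitatory and inhibitory neurons of the adult mouse brain. The genes were Neurod1, Neurod2, Neurod6, Bhlhe22, Bhlhe40, Bhlhe41, Tcf3, Tcf4, Tcf12 and Id2, taken by exact gene symbol from a table of 55487 genes. Each stood under a single identifier, and all 10 were among the 26055 genes tested, those reaching 1 TPM in 2 or more libraries. TPM is a transcript abundance divided by transcript length and scaled to the same total in each library. This is meant to let levels of different genes be set side by side. Whether reads from introns were counted is not known here, so comparisons between genes of unlike structure are uncertain.

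Proteins with a bHLH domain bind DNA as dimers at a short motif called the E-box, whose letters are CANNTG. Factors with restricted expression, such as the NEUROD proteins, pair with broadly expressed E proteins, which in the mouse are encoded by Tcf3, Tcf4 and Tcf12 and are unrelated to the TCF factors of Wnt signalling. ID proteins keep the helix-loop-helix but lack the basic region that touches DNA, so an E protein held by an ID protein cannot bind. BHLHE22 and the paired factors BHLHE40 and BHLHE41 act mainly as repressors, the last 2 also in the circadian clock.

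Nuclei were sorted by fluorescence (FACS) from whole brain, olfactory bulb excluded, of WT mice whose age is given only as adult. Excitatory nuclei gave 2 libraries and inhibitory nuclei gave 2 libraries, all labelled batch 1, and the labels name no treatment. The sources used here give neither the sort markers nor the animals behind each replicate, so the p-values reflect spread among these libraries alone, which may be technical. Sequencing depth is unknown because TPM keeps none.

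The labels were checked against marker genes. Of 8 excitatory markers, 7 were higher in excitatory nuclei, while Slc17a6, a glutamate transporter of vesicles in thalamus and brainstem, was higher in inhibitory nuclei. All 6 inhibitory markers tested, of 8 listed, were higher in inhibitory nuclei. Sets of markers for regions also differed. All 8 striatal projection neuron markers and 7 of 8 cerebellar granule cell markers were higher in inhibitory nuclei. The granule cell markers summed to 169.8 and 164 TPM in excitatory libraries, against 319.7 and 293 TPM in inhibitory libraries. Slc17a6 and the granule cell markers thus did not go with the label of the inhibitory libraries. Which cell types each sort held was not tested. Across genes, which are not independent replicates, Pearson r was 0.967 for the excitatory pair and 0.968 for the inhibitory pair of libraries.

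The design sets excitatory against inhibitory nuclei. Of the 10 genes, 5 were higher in excitatory nuclei (Neurod2, Neurod6, Bhlhe22, Bhlhe40 and Tcf4), 1 was higher in inhibitory nuclei (Bhlhe41), and 4 were not called (Neurod1, Tcf3, Tcf12 and Id2). A gene was called when limma, fitted over the whole table, gave a Benjamini-Hochberg adjusted p under 0.05. By this rule 12.0% of all genes tested were called, 5.43% toward excitatory and 6.62% toward inhibitory nuclei. The groups did not overlap for 7 of the 10 genes, 5 toward excitatory and 2 toward inhibitory nuclei. Over all genes tested that share was 56.2%, 23.0% toward excitatory and 33.3% toward inhibitory nuclei. The median log2 fold change of the 10 genes was 0.53, and that of all genes tested was -0.07. The 10 genes were chosen with earlier results of these data known, which limits this comparison. Each log2 fold change sets excitatory over inhibitory nuclei, on log2(TPM + 1) values, which understate the change of low genes, and stands with its standard error. With any 1 library left out and the filter applied again, Neurod2 and Neurod6 kept their calls, whereas over the unchanged set of 26055 genes limma then called 0 genes, with 6 of the 10 at an unadjusted p under 0.05. In bulk nuclei, fewer cells of a type and less RNA per cell cannot be told apart.

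**Figure D1:**
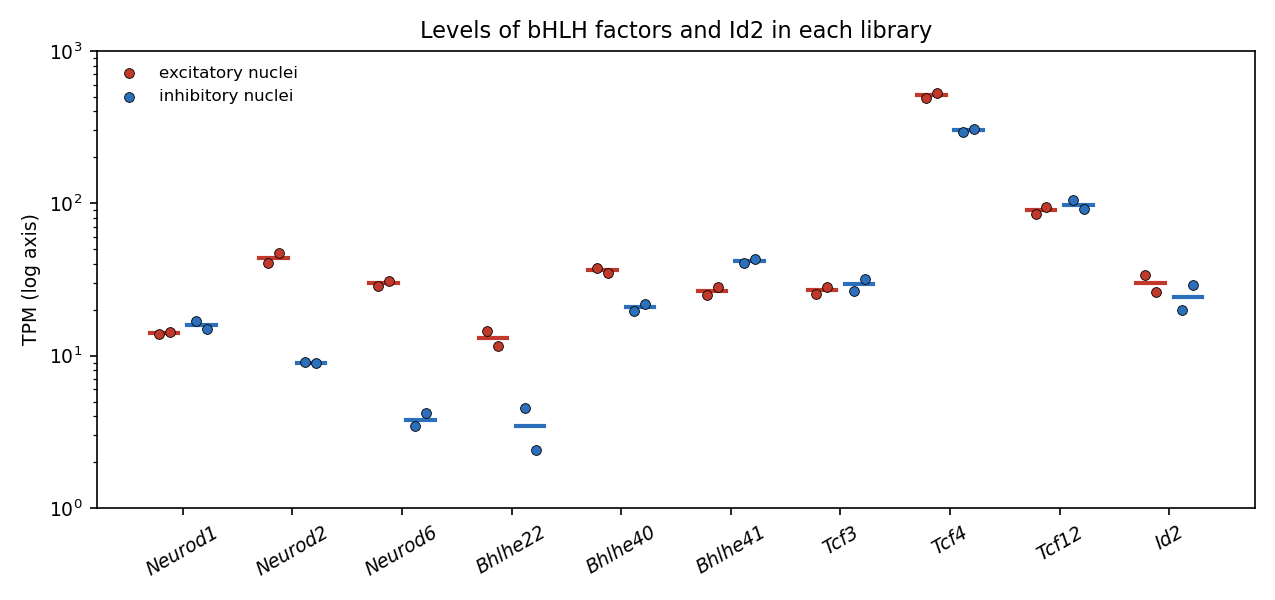
TPM of each gene in each library on a log axis, with excitatory libraries in red left of inhibitory libraries in blue and a line at each group mean (n = 2 each). Neurod2, Neurod6 and Bhlhe22 have the widest gaps between groups, Tcf4 stands above all others at 492 and 528 TPM against 294 and 307 TPM, and the points of Tcf3, Tcf12 and Id2 overlap.

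**Figure D2:**
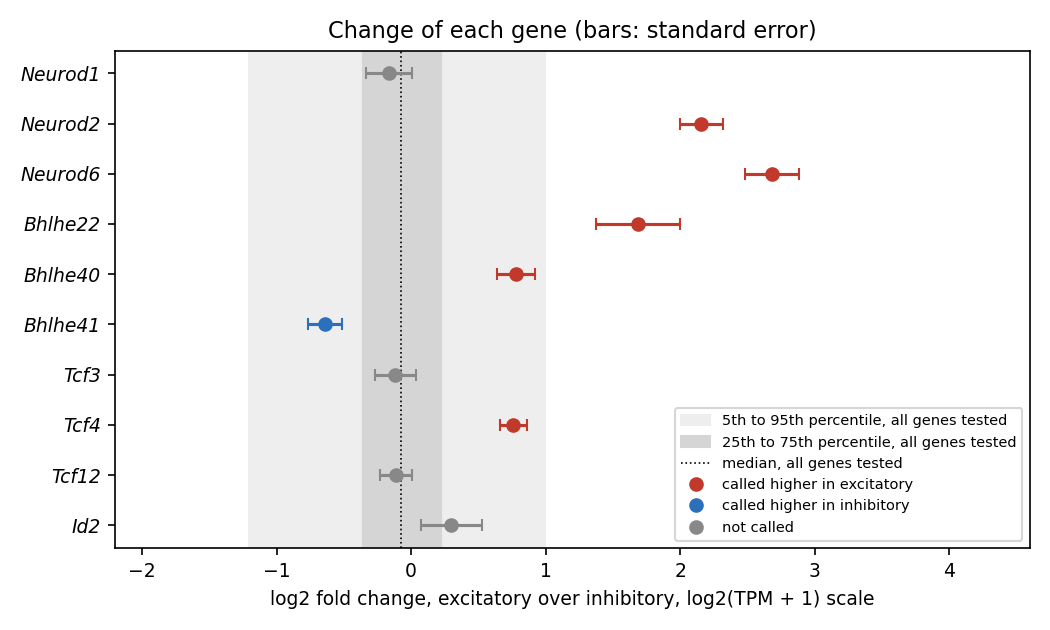
Log2 fold change of each gene, excitatory over inhibitory, with its standard error, over bands for all 26055 genes tested. Neurod6 (2.68), Neurod2 (2.16) and Bhlhe22 (1.69) lie above the 95th percentile of all genes at 0.99, and Bhlhe41 (-0.64) is the only gene of the 10 called toward inhibitory nuclei.

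The NEUROD factors drive neuronal differentiation and stay on in many mature glutamatergic neurons. Neurod6 marks pyramidal neurons of the neocortex and hippocampus. It stood at 28.6 and 31.1 TPM in excitatory libraries, against 3.43 and 4.18 TPM in inhibitory libraries. Both excitatory libraries were far above both inhibitory ones, a 7.83-fold ratio of means and a log2 fold change of 2.68 ± 0.20 (limma adjusted p = 0.00229). By this fold change Neurod6 had rank 65 and Neurod2 rank 143 toward excitatory nuclei among the 26055 genes tested.

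Neurod2 acts in cortical projection neurons and their synapses. It stood at 40.4 and 47.2 TPM in excitatory libraries, against 9.06 and 8.96 TPM in inhibitory libraries. The groups were well apart here too, with a 4.86-fold ratio of means and a log2 fold change of 2.16 ± 0.16 (limma adjusted p = 0.00221).

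Neurod1 is best known in cerebellar and dentate granule cells. It stood at 13.8 and 14.3 TPM in excitatory libraries, against 16.8 and 15.0 TPM in inhibitory libraries. The inhibitory libraries were slightly higher without overlap, but the log2 fold change of -0.17 ± 0.17 was not called (limma adjusted p = 0.590). Neurod1 lies within Cerkl on the same strand and shares 201 exonic bases with it, and it overlaps the lincRNA gene Gm26755 on the other strand, which was not analysed here. Cerkl stood at 11.3 and 14.4 TPM in excitatory libraries, against 3.47 and 5.80 TPM in inhibitory libraries, and reads of the shared bases could be counted for either gene, which leaves both levels uncertain. The cerebellar granule cell markers given above, among them Gabra6 and Fat2, were higher in inhibitory nuclei, and their part in the Neurod1 values was not tested.

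The makeup of the summed NEUROD transcripts therefore differed between the groups. The sum was 82.8 and 92.6 TPM in excitatory libraries, against 29.3 and 28.1 TPM in inhibitory libraries. Neurod1 made up 16.7% and 15.5% of it in excitatory libraries, against 57.4% and 53.3% in inhibitory libraries. Neurod2 was the largest part in excitatory libraries (48.8% and 51.0%, against 30.9% and 31.8% in inhibitory libraries), and Neurod6 took 34.5% and 33.5%, against 11.7% and 14.9%. These shares did not overlap between groups, but p was 0.333 for each in an exact permutation test (two-sided), the smallest that 2 libraries a group allow. With Neurod1 left out, Neurod2 took 59.4% ± 1.25 of the remaining pair in excitatory nuclei and 70.3% ± 3.07 in inhibitory nuclei (SD, n = 2 each), so the direction of its share turned.

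**Figure D3:**
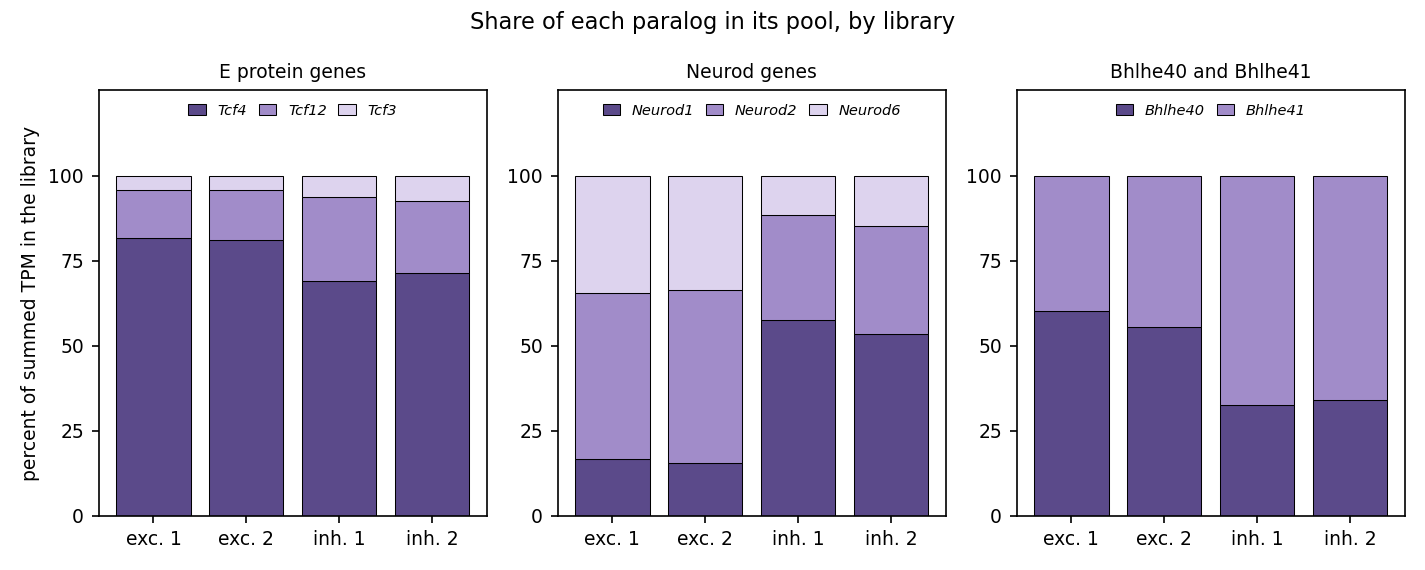
Percent of the summed TPM of each set of paralogs taken by each gene, per library, with excitatory libraries (exc.) left of inhibitory libraries (inh.). Neurod1 takes 15.5% to 16.7% of the NEUROD sum in excitatory libraries and 53.3% to 57.4% in inhibitory libraries, and Bhlhe40 takes 55.4% to 60.2% of its pair in excitatory libraries and 32.4% to 33.9% in inhibitory libraries.

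Because these factors bind E-boxes, the upstream sequence of the 3 NEUROD genes and of Bhlhe41 is shown as RefSeq gives it (build GRCm38.p6, minus strand for all 4, 5′ to 3′). Each stretch ends before the first annotated transcript start of its own gene, with every CANNTG in capitals. That of Neurod1 reaches into Cerkl, which begins on the same strand at 79456785. The stretches are chr2:79456752-79456886, chr11:98329649-98329895, chr6:55681264-55681513 and chr6:145865559-145865670.
Neurod1: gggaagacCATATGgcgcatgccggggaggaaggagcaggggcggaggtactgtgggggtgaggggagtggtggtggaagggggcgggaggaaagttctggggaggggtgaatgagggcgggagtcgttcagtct
Neurod2: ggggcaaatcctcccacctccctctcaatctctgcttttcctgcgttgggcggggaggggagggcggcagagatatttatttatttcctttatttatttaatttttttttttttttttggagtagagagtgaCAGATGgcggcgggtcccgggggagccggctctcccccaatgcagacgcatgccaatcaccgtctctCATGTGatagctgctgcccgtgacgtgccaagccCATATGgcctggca
Neurod6: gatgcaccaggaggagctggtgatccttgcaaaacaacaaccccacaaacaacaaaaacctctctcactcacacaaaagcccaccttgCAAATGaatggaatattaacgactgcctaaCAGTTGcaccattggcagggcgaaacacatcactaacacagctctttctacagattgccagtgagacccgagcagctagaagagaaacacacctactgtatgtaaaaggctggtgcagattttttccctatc
Bhlhe41: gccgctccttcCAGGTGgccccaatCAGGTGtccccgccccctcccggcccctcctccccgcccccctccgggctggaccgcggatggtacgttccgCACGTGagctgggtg
The motif CANNTG reads the same on both strands as a pattern, and within the 250 bases before the RefSeq start 66.2% of 32851 windows of all genes held at least 1. Neurod2 held 3, Neurod6 held 2 and Neurod1 held 1. The CAGATG form, searched on both strands and preferred by NEUROD factors, was present in Neurod2 alone of the 3, and in 14.4% of all windows. The CACGTG form, which BHLHE40 and BHLHE41 prefer, was present in Bhlhe41, and in 6.02% of all windows. Both forms are also counted as CANNTG. Windows were used for 7 of the 10 genes. A match is a description of letters and says nothing of binding.

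Bhlhe22 encodes a repressor that sets area identity in the cortex and also acts in some inhibitory neurons of spinal cord and retina. It stood at 14.4 and 11.6 TPM in excitatory libraries, against 4.52 and 2.40 TPM in inhibitory libraries. The groups did not overlap, although the inhibitory libraries were wide apart in proportion, and the ratio of means was 3.76. The log2 fold change was 1.69 ± 0.31 (limma adjusted p = 0.0238). The call was lost without excitatory replicate 1 (adjusted p = 0.0823) and without excitatory replicate 2 (adjusted p = 0.0513).

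Prdm8 encodes the partner with which BHLHE22 represses genes in mouse neurons. It stood at 9.40 and 11.0 TPM in excitatory libraries, against 3.63 and 2.64 TPM in inhibitory libraries. Excitatory libraries were higher without overlap, with a log2 fold change of 1.45 ± 0.26 (limma adjusted p = 0.0225). Prdm8 shares 1411 exonic bases with A730035I17Rik on the opposite strand, and the sources used here do not say whether strand was used in counting.

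Some markers of cortical neurons were higher in excitatory nuclei together with Neurod2, Neurod6 and Bhlhe22. In inhibitory nuclei, Neurod2 stood at 20.6%, Neurod6 at 12.8% and Bhlhe22 at 26.6% of the excitatory level. The same percentage was 5.17% for Emx1 and 15.5% for Tbr1, both from the list of excitatory neuron markers. In the separate list of 8 cortical and hippocampal projection neuron markers, 3 were called toward excitatory nuclei, which were Neurod6 itself, Mpped1 and Fezf2 (9.81%). The other 5, Tle4, Rorb, Cux2, Bcl11b and Prox1, were not called, and the log2 fold changes of Bcl11b (-0.09) and Prox1 (-0.23) were below 0. How much of the inhibitory level of these genes came from excitatory nuclei in the sort was not tested.

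Bhlhe40 and Bhlhe41 are close paralogs that dampen clock genes, and Bhlhe40 is also induced by neuronal activity. They moved in opposite directions. Bhlhe40 stood at 37.7 and 34.8 TPM in excitatory libraries, against 19.5 and 21.96 TPM in inhibitory libraries. Excitatory libraries were higher without overlap, a 1.75-fold ratio of means and a log2 fold change of 0.78 ± 0.14 (limma adjusted p = 0.0217).

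Bhlhe41 stood at 24.98 and 28.0 TPM in excitatory libraries, against 40.7 and 42.9 TPM in inhibitory libraries. Inhibitory libraries were higher without overlap, with means 1.58-fold apart and a log2 fold change of -0.64 ± 0.13 (limma adjusted p = 0.0301). Summed, the pair stood at 62.7 and 62.8 TPM in excitatory libraries, against 60.3 and 64.8 TPM in inhibitory libraries, so the total overlapped while the makeup did not. The log2 ratio of Bhlhe40 over Bhlhe41 was 0.44 ± 0.19 in excitatory nuclei and -0.98 ± 0.06 in inhibitory nuclei (SD, n = 2 each), with p = 0.333 in an exact two-sided permutation test, the smallest possible.

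These calls were less firm than those of the NEUROD genes. Bhlhe41 lost its call without any 1 library (adjusted p = 0.103 and 0.0567 without excitatory replicate 1 and 2, 0.0857 and 0.115 without inhibitory replicate 1 and 2). Bhlhe40 lost it without excitatory replicate 1 (0.0840), excitatory replicate 2 (0.0561) or inhibitory replicate 1 (0.0753). Bhlhe40 shares exonic bases with the antisense gene 0610040F04Rik and Bhlhe41 with Gm43909 on the opposite strand, each under 8 TPM in every library. Microglia also express Bhlhe41, and 8 microglia markers, 0 of them called, summed to 67.8 and 63.8 TPM in excitatory libraries, against 86.4 and 76.0 TPM in inhibitory libraries. Their part in the Bhlhe41 difference was not tested.

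Of 10 clock genes with E-boxes, 1 was called, which is near the share of all genes. Per3, a period gene of the clock, stood at 83.9 and 93.6 TPM in excitatory libraries, against 51.4 and 63.4 TPM in inhibitory libraries (log2 fold change 0.63 ± 0.14, limma adjusted p = 0.0387). The other 9 ranged between -0.47 and 0.63 on the log2 scale. With a library left out, 0 of the 10 clock genes were called without excitatory replicate 1, excitatory replicate 2 or inhibitory replicate 1, and 2 without inhibitory replicate 2.

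Tcf4 was the most abundant of the 10 genes in every library. It encodes the E protein E2-2, whose loss from one copy causes Pitt-Hopkins syndrome in humans. It stood at 492 and 528 TPM in excitatory libraries, against 294 and 307 TPM in inhibitory libraries. Both excitatory libraries were higher, a 1.70-fold ratio of means and a log2 fold change of 0.76 ± 0.10 (limma adjusted p = 0.00822). Its mean level was at the 99.7th percentile of all genes tested. Without inhibitory replicate 1 the call was lost (adjusted p = 0.0556).

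Tcf12, which encodes the E protein HEB, was second in every library. It stood at 85.1 and 94.96 TPM in excitatory libraries, against 104 and 91.0 TPM in inhibitory libraries. The groups overlapped, and the log2 fold change of -0.12 ± 0.12 was not called (limma adjusted p = 0.592).

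Tcf3, which encodes E12 and E47, stood at 25.5 and 28.3 TPM in excitatory libraries, against 26.7 and 32.0 TPM in inhibitory libraries. These ranges overlapped as well, with a log2 fold change of -0.12 ± 0.15 (limma adjusted p = 0.676).

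The summed E protein transcripts thus stood at 602 and 651 TPM in excitatory libraries, against 425 and 430.2 TPM in inhibitory libraries, and Tcf4 was the 1 of the 3 that was called. Tcf4 made up 81.6% and 81.1% of the sum in excitatory libraries, against 69.1% and 71.4% in inhibitory libraries. Tcf12 made up 14.1% and 14.6%, against 24.6% and 21.1%, and Tcf3 made up 4.23% and 4.34%, against 6.28% and 7.45%. The log2 ratio of Tcf4 over Tcf12 was 2.49 ± 0.04 in excitatory nuclei and 1.61 ± 0.19 in inhibitory nuclei (SD, n = 2 each), with p = 0.333 in an exact two-sided permutation test, the smallest possible. For every 100 TPM of E protein transcripts, the NEUROD genes and Bhlhe22 together gave 16.2 and 16.0 TPM in excitatory libraries, against 7.97 and 7.10 TPM in inhibitory libraries.

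The genes differ in structure, which matters for nuclear RNA, where unspliced transcripts are common. In the GENCODE annotation of mm10, Tcf4 (chromosome 18, 69343356 to 69689079, plus strand) spans 345724 bases, of which 7.92% are exonic, and Tcf12 (chromosome 9, 71842688 to 72111871, minus strand) spans 269184 bases with 5.77% exonic. Neurod2 (chromosome 11, 98325415 to 98329648, minus strand) and Neurod6 (chromosome 6, 55677822 to 55681263, minus strand) each have 2 exons in about 4 kb or less, and Bhlhe22 (chromosome 3, 18054174 to 18057517, plus strand) is a single exon. The sources used here do not say whether reads from introns were counted.

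Id2 encodes an inhibitor of E proteins found in many neurons and in neurogliaform interneurons. It stood at 33.9 and 26.0 TPM in excitatory libraries, against 19.8 and 28.9 TPM in inhibitory libraries. The libraries of each group were far apart and the groups overlapped, so the log2 fold change of 0.30 ± 0.23 was not called (limma adjusted p = 0.453). Per 100 TPM of E protein transcripts there were 4.81 ± 1.16 TPM of Id2 in excitatory nuclei and 5.69 ± 1.46 TPM in inhibitory nuclei (SD, n = 2 each), which overlapped (exact two-sided permutation p = 0.667). Neurogliaform and related interneuron markers went both ways, with 5 of 8 toward inhibitory and 2 toward excitatory nuclei.

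Of the other ID genes, Id4 was the only call among 2 tested of 3. It stood at 8.25 and 6.24 TPM in excitatory libraries, against 20.3 and 16.1 TPM in inhibitory libraries. Inhibitory libraries were higher without overlap, with a log2 fold change of -1.22 ± 0.23 (limma adjusted p = 0.0241). The call was lost without excitatory replicate 2 and without inhibitory replicate 1. Id4 shares exonic bases with 2 genes on the opposite strand. Id4 is also strong in astrocytes, whose 8 markers, 1 of them called, summed to 429 and 490.2 TPM in excitatory libraries, against 136 and 128 TPM in inhibitory libraries. Without Slc1a2 the other 7 summed to 70.2 and 60.4 TPM in excitatory libraries, against 50.9 and 39.7 TPM in inhibitory libraries. The part of astrocytes in the Id4 values was not tested.

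**Figure D4:**
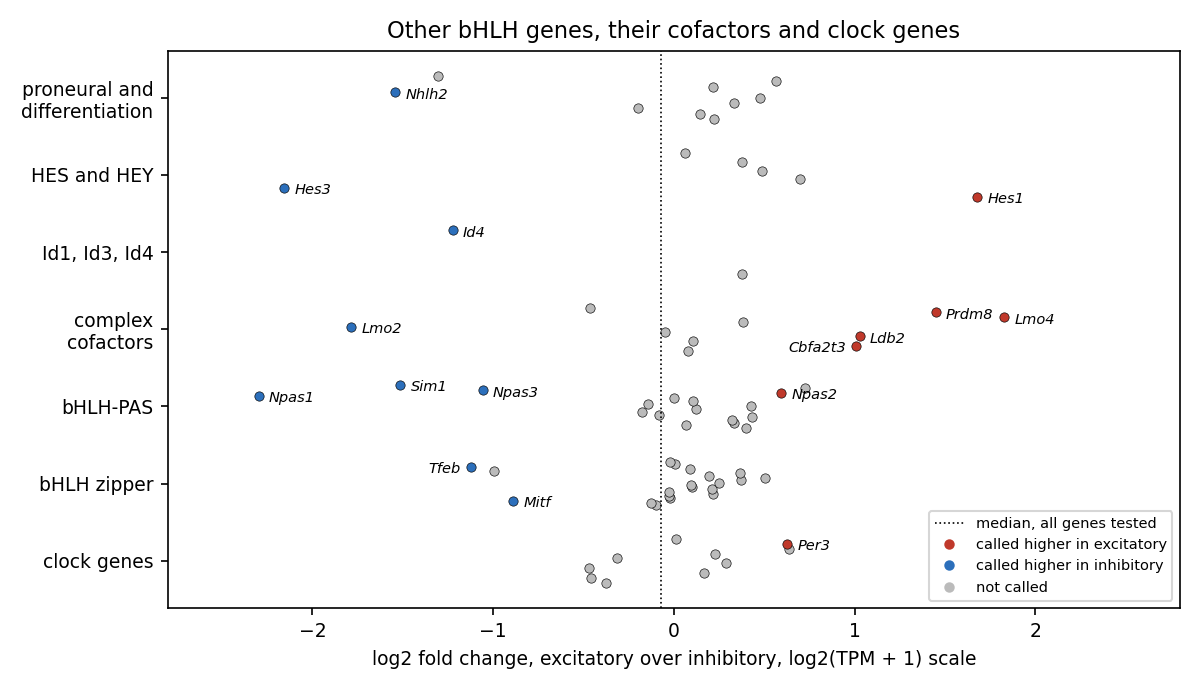
Log2 fold changes, excitatory over inhibitory, of the tested genes of 7 lists around the bHLH family, with called genes coloured and named and the median of all genes tested as a dotted line. Cofactors reach from Lmo2 (-1.79) to Lmo4 (1.83). Called genes are 1 of 9 tested in the proneural list and 2 of 20 in the zipper list, against 12.0% of all genes tested.

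Among 10 cofactors of bHLH complexes, 4 were called toward excitatory and 1 toward inhibitory nuclei, with a median log2 fold change of 0.25. Over all genes tested, 5.43% were called toward excitatory and 6.62% toward inhibitory nuclei. This list, too, was chosen with earlier results of these data known. Lmo4, a LIM adaptor, stood at 154 and 181 TPM in excitatory libraries, against 46.8 and 45.8 TPM in inhibitory libraries (log2 fold change 1.83 ± 0.12, limma adjusted p = 0.00162). Lmo2, the LIM adaptor of TAL1 and E protein complexes in blood, went the other way, at 5.91 and 5.38 TPM in excitatory libraries, against 20.5 and 23.5 TPM in inhibitory libraries (log2 fold change -1.79 ± 0.19, limma adjusted p = 0.00511). Ldb2, which bridges LIM adaptors, had a log2 fold change of 1.03 ± 0.17 (limma adjusted p = 0.0176). The fourth call toward excitatory nuclei, named after its values were seen, was the E protein corepressor Cbfa2t3 (1.01 ± 0.21), which shares exonic bases with a gene on the opposite strand. With a library left out, 3 cofactors were called without excitatory replicate 1, 2 without excitatory replicate 2, 4 without inhibitory replicate 1 and 3 without inhibitory replicate 2.

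HES and HEY genes encode bHLH repressors, and some are targets of Notch signalling. Of 10 genes of this family, 6 were tested, with 1 call in each direction (33.3%, against 12.0% of all genes tested). Hes1 stood at 13.5 and 9.83 TPM in excitatory libraries, against 4.03 and 2.04 TPM in inhibitory libraries (log2 fold change 1.68 ± 0.33, limma adjusted p = 0.0293). Hes3 stood at 1.98 and 1.203 TPM in excitatory libraries, against 8.29 and 13.1 TPM in inhibitory libraries (log2 fold change -2.16 ± 0.33, limma adjusted p = 0.0133). Hes1 is also expressed in astrocytes. The astrocyte markers given above, Slc1a2 left out, also had a higher sum in excitatory libraries, although 0 of these 7 were called. Their part in the Hes1 difference was not tested. A single call in this list was left without excitatory replicate 1, excitatory replicate 2 or inhibitory replicate 2.

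Of 22 other proneural and differentiation genes, 9 were tested and 13 were too low to test. Among these 13, 6 were listed at 0 in all 4 libraries, Neurog1, Atoh1 and Ptf1a included. Of the 9 tested, 11.1% were called, against 12.0% of all genes tested. The only call was Nhlh2, a factor of hypothalamic neurons, at 0.822 and 0.344 TPM in excitatory libraries, against 3.08 and 4.10 TPM in inhibitory libraries (log2 fold change -1.54 ± 0.32, limma adjusted p = 0.0336). Nhlh2 met the 1 TPM minimum in the inhibitory libraries only. With either of these left out it was not tested, and with either excitatory library left out its call was lost.

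In the wider family, 17 of 19 bHLH-PAS genes were tested, with 1 call toward excitatory and 3 calls toward inhibitory nuclei. Called genes made up 23.5% of this list, against 12.0% of all genes tested. Npas1, a factor of forebrain interneurons, stood at 1.62 and 2.2004 TPM in excitatory libraries, against 11.8 and 14.8 TPM in inhibitory libraries (log2 fold change -2.30 ± 0.27, limma adjusted p = 0.00602). Npas3 (-1.06 ± 0.20) and the hypothalamic factor Sim1 (-1.51 ± 0.31) were the other calls toward inhibitory nuclei. Sim1 met the minimum in the inhibitory libraries only, so with either of these left out it was not tested. Npas3 shares 83 exonic bases with 1700060O08Rik on the opposite strand. Npas2, a partner of the clock factor ARNTL, was called toward excitatory nuclei (0.59 ± 0.13). Of 22 bHLH zipper genes, 20 were tested and 2 were called (10%, against 12.0% of all genes tested), the lysosome factors Tfeb (-1.12 ± 0.21) and Mitf (-0.89 ± 0.19), both higher in inhibitory nuclei, and the median log2 fold change of this list was 0.05. With a library left out, 1 or 2 bHLH-PAS genes and 0 or 1 zipper genes were called, 2 without excitatory replicate 1 for the PAS list and 1 without excitatory replicate 2 for the zipper list.

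The levels also fell in a different order within each group. In excitatory nuclei the order of mean TPM was Tcf4, Tcf12, Neurod2, Bhlhe40, Id2, Neurod6, Tcf3, Bhlhe41, Neurod1 and Bhlhe22. Id2 overlapped with Neurod6, Tcf3 with Bhlhe41 and Neurod1 with Bhlhe22, while other neighbours did not overlap. In inhibitory nuclei the order was Tcf4, Tcf12, Bhlhe41, Tcf3, Id2, Bhlhe40, Neurod1, Neurod2, Neurod6 and Bhlhe22. There the overlapping neighbours were Tcf3 with Id2, Id2 with Bhlhe40 and Neurod6 with Bhlhe22.

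Profiles over the 4 libraries were compared with those of 11813 other protein-coding genes of at least 5 TPM on average, by the Euclidean distance between centred log2(TPM + 1) values. The nearest 2 profiles to Neurod2 were Slc1a2 (distance 0.0608), a glutamate transporter gene, and Glis3 (0.0833). For Neurod6 they were Ccn3 (0.120) and Pamr1 (0.143), for Bhlhe22 Hes1 (0.0913) and Gpc4 (0.0964), and for Bhlhe40 Zfp365 (0.0465) and Cys1 (0.0591). For Bhlhe41 they were Elmod2 (0.0320) and Atl2 (0.0341), and for Tcf4 Vps37b (0.0225) and Ppm1e (0.0236). The genes that were not called had Jmjd6 and Usp9x nearest to Neurod1, Sys1 and Hnrnpul1 to Tcf3, Ypel5 and Tuba1c to Tcf12, and Rpl36a and Lpcat2 to Id2. With 4 libraries in 2 groups, such a distance mainly compares the size of the group difference.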

How the data were processed

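Values were the TPM (transcript abundances per length, scaled to a fixed total) that the authors deposited for 2 excitatory and 2 inhibitory libraries. Per the labels' protocols, RNA of sorted nuclei was depleted of ribosomal RNA, and the libraries were strand-specific and read in pairs. StringTie 2.2.1, Bowtie2 2.3.5, HISAT2 2.2.1 and fastp 0.23.4 are named, with build mm10, per the submitters' processing notes. The role of each, the annotation and the use of strand were not given in the sources used here. Columns summed to between 999833 and 999891 TPM. Depth is unknown, so no counting interval was computed. Columns were matched to samples by the names in the sample descriptions. Libraries of a group shared 89 or 93 identical values among 26055 genes, so none was a copy.

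Genes reaching 1 TPM in 2 or more libraries were fitted as log2(TPM + 1), with 1 as the pseudocount, using limma 3.58.1 in R 4.3.3 (trended prior, two-sided, Benjamini-Hochberg over all genes tested). The fit was tested on simulated data. Alternatives were other pseudocounts, filters, scalings and priors, protein-coding genes only, a replicate block and leaving out each library. Shares and ratios of paralogs came from linear TPM, and log2 ratios from log2(TPM + 1). Positions came from GENCODE M21, whose identifiers matched 55141 of 55487 genes, and promoter sequences from RefSeq on GRCm38.p6. Figures used matplotlib 3.10.9 in Python 3.11.15. The 10 genes and the lists were chosen with earlier results of these data known. All 10 are named, and from each of the 7 pathway lists up to 3 called genes per direction with the smallest p. Dlx6os1, a symbol under more than 1 identifier, was left out of its marker list.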

Additional observations from a re-analysis of the deposited data

How the results depend on the processing

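Each of the 10 genes kept its direction under the 13 alternatives planned, except Tcf3, whose log2 fold change ran between -0.25 and 0.0088 over the libraries left out (the highest without inhibitory replicate 2). Neurod2 (2.05 to 2.27) and Neurod6 (2.57 to 2.94) kept their calls under all 13. Without the filter on low values, 666 genes were called toward excitatory and 740 toward inhibitory nuclei, against 1414 and 1725, and of the 10 genes 3 (Neurod2, Neurod6 and Tcf4) and 0. With no variance trend, 3 (Neurod2, Neurod6 and Bhlhe22) and 0 of the 10 genes were called. Leaving out 1 library with the filter applied again to the other 3 called 604 to 1039 genes toward excitatory and 800 to 1085 toward inhibitory nuclei, and 3 to 5 and 0 of the 10 genes. The count was 3 without excitatory replicate 1, without excitatory replicate 2 and without inhibitory replicate 1, and 5 without inhibitory replicate 2. A further alternative, chosen after seeing the data, tested instead the 26055 genes of the filter over all 4 libraries. Of these genes, 89 to 93 then had equal values in the pair of libraries left in 1 group, and so no spread within groups. Limma then called 0 genes and 0 of the 10 (smallest adjusted p between 0.0545 and 0.0664), although 6 of the 10 had an unadjusted p under 0.05, and the lone library of a group is in every such fit assumed to vary like the other group.

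Among pool values, the difference in the share of Neurod2 was 18.5 percentage points, and -10.9 with Neurod1 left out of the pool. Neurod1 was the largest part in inhibitory libraries. Of the remaining pair, Neurod6 had the larger ratio of means (7.83, against 4.86 for Neurod2). The difference in summed Bhlhe40 and Bhlhe41 was 0.204 TPM, and -2.09 to 2.49 TPM over the libraries left out. The difference in Id2 per 100 TPM of E protein transcripts was -0.883, and -1.92 to 0.150 over the libraries left out. With the replicate block, 1946 and 2382 genes and 5 and 1 of the 10 were called, and 2 clock genes in place of 1. Same-numbered libraries deviated together only weakly (correlation 0.0957 across genes), with 2 pairs, so the numbers are not taken as pairing. Depth limits are unknown with TPM.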

Other observations

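Within Tcf12, 11 shorter genes are annotated, 7 on its strand, and 0 of the 11 share exonic bases with it. All 11 had a higher mean in inhibitory nuclei, with log2 fold changes between -1.22 and -0.02, and 1 was called (Rpl15-ps2, a ribosomal pseudogene on the opposite strand, limma adjusted p = 0.0452), where 12.0% of all genes tested were called. Gm27450, 1 of the 11, reached 1 TPM in the inhibitory libraries only. Summed, they averaged 104 TPM in excitatory and 139.9 TPM in inhibitory nuclei, beside 90.04 TPM in excitatory and 97.7 TPM in inhibitory nuclei for Tcf12 itself. In Tcf4, the 1 gene annotated within it, Gm24845, had a log2 fold change of 1.00 (adjusted p = 0.227), the same sign as Tcf4. Whether intronic reads of the hosts were counted for these genes was not tested.

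Of the cell types that also use these factors, oligodendrocyte markers (0 of 8 called) summed to 361 and 295 TPM in excitatory libraries, against 310.2 and 227 TPM in inhibitory libraries. Olig1 stood at 11.6 and 8.47 TPM in excitatory libraries, against 9.91 and 7.14 TPM in inhibitory libraries. Of 8 endothelial markers 6 were too low to test, and all 8 summed to 10.4 and 9.90 TPM in excitatory libraries, against 8.30 and 8.73 TPM in inhibitory libraries.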
